A study of Mus musculus with 14 samples.

Results

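Regions with Otx2 peaks called in mouse retina at birth (P0), and at no other stage examined, were described from CUT&RUN peak lists. In CUT&RUN an antibody tethers a nuclease to the protein of interest in the nucleus, and the short DNA pieces it frees are sequenced. Overlapping peaks of the 10 lists on chromosomes 1 to 19 were merged (1 bp or more), which gave 39193 regions. A region was taken when it held a peak of both Otx2 P0 lists, no peak of the Otx2 list of embryonic day 14 (E14) or of either adult Otx2 list, and no peak of any of the 5 lists of the corepressor BCOR. There were 7149 such birth-alone regions. They made up 39.2% of the 18239 regions with a peak of both Otx2 P0 lists (95% Wilson interval 38.5 to 39.9%), and 18.2% of all merged regions. The regions were chosen by presence and absence of called peaks, so their peak values are given as a description without a test. A peak missing from a list does not show that binding was absent. The Otx2 lists held 21759 and 24884 peaks at P0, against 8497 at E14 and 7183 and 14590 in adult retina.

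Otx2 is a homeobox transcription factor that is needed to make photoreceptors and bipolar cells, and in the mature retina it acts together with the related factor Crx, which recognises a very similar DNA sequence. At birth the mouse retina still holds dividing progenitors and newly formed rods, while most ganglion cells and cones have already been made before birth. BCOR is a corepressor without DNA-binding activity of its own that reaches genes through transcription factors and a variant Polycomb complex.

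The samples came from wild-type CD1 mice, and the labels name the material as retinal cells of retina. Otx2 and BCOR were each profiled in 1 library at E14, in 2 at P0 and in 2 from adult retina. All were labelled with the same mouse line, strain and tissue, and how many animals went into a library was not stated there. The series text writes the factor as Otx2/Crx where the sample labels name Otx2. In whole retina, binding in fewer cells and weaker binding per cell cannot be told apart.

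The birth-alone regions took 7184 of the 21759 peaks of Otx2 P0 replicate 1 (33.0%) and 7169 of the 24884 peaks of replicate 2 (28.8%). Nearly all were simple, with 7096 holding a single peak of each list and 53 holding several peaks of one or both. This was not particular to them, since 17862 of all 18239 regions with both Otx2 P0 peaks held a single peak of each list. The other 11090 regions with both Otx2 P0 peaks fell into 5 kinds. Most of them, 7012, held a BCOR peak of some stage. Without BCOR, 1488 had peaks of both adult Otx2 lists but not of E14, 1013 had a peak of the E14 Otx2 list but of no adult list, 632 had Otx2 at E14 and in the adult, and 945 had a peak of a single adult list.

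Peaks of the birth-alone regions were lower than those of the other regions with both peaks, and near the medians of their lists. The authors' fold, which sets summit signal over local background, had a median of 6.04 in Otx2 P0 replicate 1, with the middle 50% of regions from 4.81 to 8.17 and a full range of 2.49 to 56.2. In replicate 2 the median was 6.70, the middle 50% ran from 5.14 to 9.42 and the full range was 2.41 to 91.3. The other regions with both peaks had medians of 8.53 and 9.34. Over all peaks of each list, found in both lists or not, the median fold was 6.36 in replicate 1 and 6.49 in replicate 2. Among the kinds without BCOR the medians in replicate 1 were 6.73 for regions with a single adult list, 7.71 for regions kept in both adult lists, 10.1 for regions shared with E14 and 15.3 for regions with Otx2 at every stage. Birth-alone regions thus had the lowest median of the 6 kinds in both libraries, close to that of regions with a single adult list (7.37 in replicate 2), and the ranges of all kinds overlapped widely.

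The smaller of the 2 folds of a region was used as its strength. Its median was 5.60 over the birth-alone regions and 7.79 over the others. A strength under 5 was found in 2874 birth-alone regions (40.2%), one of 5 to 10 in 3379 (47.3%), one of 10 to 20 in 803 (11.2%) and one of 20 or more in 93 (1.30%). The group therefore mostly had strengths under 10, with a thin tail of higher ones. Being mostly under 10 was not particular to it. A strength of 10 or more was found in 12.5% of birth-alone regions. Over all 18239 regions with both Otx2 P0 peaks the share was 27.3%. It was 17.2% in regions with a single adult list and 28.6% in those kept in both adult lists. Regions with BCOR had 36.5%, those shared with E14 47.1% and those with Otx2 at every stage 72.2%. Peaks of birth-alone regions widened with height: the median width in replicate 1 was 275 bp under a strength of 5 and 727 bp at 20 or more. Over all birth-alone regions the median peak was 359 bp wide in replicate 1 and 419 bp in replicate 2. The other regions with both peaks had medians of 507 and 544 bp. Wider peaks went with higher folds there too, at Spearman correlations of 0.634 in replicate 1 and 0.643 in replicate 2. In birth-alone regions these correlations were 0.525 and 0.57.

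**Figure D1:**
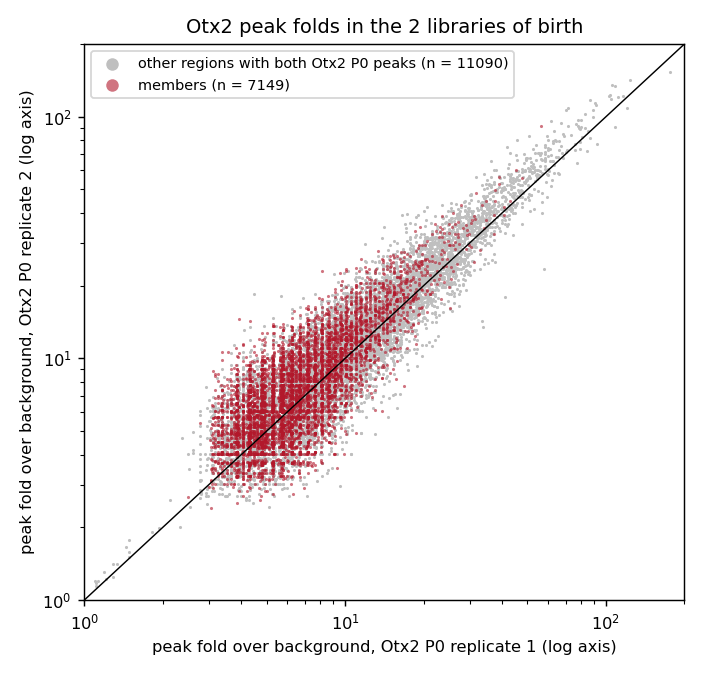
Peak folds of regions with both Otx2 P0 peaks, with replicate 1 on the horizontal and replicate 2 on the vertical axis (both logarithmic), 1 point per region and a line of equality. The 7149 birth-alone regions (red, called members in the plots) crowd at low folds, with medians of 6.04 and 6.70, and their highest reaches 56.2 and 91.3.

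The share of birth-alone regions fell with strength. The 18239 regions with both Otx2 P0 peaks were sorted by strength into 10 classes of equal size. In class 1, the lowest (strength up to 4.01), 937 of 1824 regions, 51.4% (95% Wilson interval 49.1 to 53.7%), were birth-alone, and the share was highest in class 2, at 57.9%. It passed through 46.2% in class 5, with strengths of 5.75 to 6.62, and ended at 163 of 1824 regions, 8.94% (7.71 to 10.3%), in class 10, from a strength of 17.3 upward. Without the single Otx2 E14 list the share in class 10 was 19.8%, and without Otx2 P0 replicate 1 it was 14.1%. The share in class 1 was 25.4% when a −log10 q of 5 or more was asked of both Otx2 P0 lists. From class 1 to class 10, the share with an Otx2 E14 peak went from 25.2 to 75.1%. That with an adult Otx2 peak went from 29.2 to 57.3% and that with a BCOR peak from 36.0 to 58.6%. Each of these shares was lowest in class 2, at 18.5, 26.4 and 25.6% in the same order. Of the 100 highest peaks of each P0 list 1 lay in a birth-alone region, and of the 1000 highest 56 did in replicate 1 and 72 in replicate 2.

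**Figure D2:**
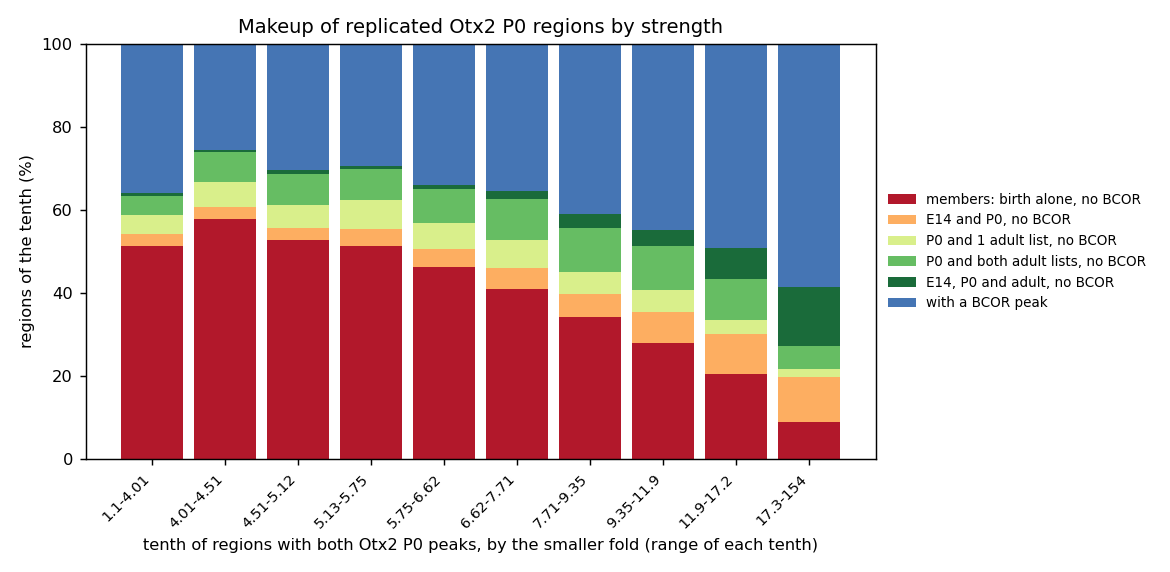
Makeup of the 18239 regions with both Otx2 P0 peaks, in 10 equal parts by the smaller of their 2 folds (horizontal axis, range of each part), as a percentage of each part (vertical axis). Birth-alone regions (red) take 51.4% of the lowest part and 8.94% of the highest, where regions with a BCOR peak (blue) take 58.6%.

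The peak values also held the coverage behind them. If the fold is taken as (coverage + 1)/(background + 1) and the p-value as the upper tail of a Poisson distribution with that background, the form MACS2 is known to use, a whole number of reads or fragments over the summit gave the deposited −log10 p within 0.001 for 98.06 to 99.9% of the peaks of each list. It did so for the highest peak of each list in all 7149 birth-alone regions. Their median summit coverage was 13 in replicate 1 (middle 50% from 10 to 18, full range 6 to 128) and 17 in replicate 2 (13 to 25, full range 7 to 222). Regions with a peak of a single adult list and no BCOR were close to them, with medians of 14 and 19, followed by those kept in both adult lists with 17 and 22. Regions shared with E14 had 24 and 33, and regions with BCOR 27 and 36.

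The background around them was low. The lowest background in a list, which many of its peaks share, was 1.08 in Otx2 P0 replicate 1 and 1.44 in replicate 2. In replicate 1, 3360 birth-alone regions (47.0%, 95% Wilson interval 45.8 to 48.2%) lay at that lowest value, as did 48.3% of the regions kept in both adult lists (45.7 to 50.8%) and 30.9% of those shared with E14 (28.1 to 33.8%). Regions with a BCOR peak lay there in 12.5% (11.8 to 13.3%), and their median background was 2.18, against 1.10 in birth-alone regions. Replicate 2 gave the same order, with 47.1% of birth-alone regions, 47.9% of regions kept in both adult lists, 32.1% of those shared with E14 and 12% of regions with BCOR. Regions of one library are not replicates of a stage, so these differences were not tested.

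The same values give the lowest folds that the other lists called. Their lowest backgrounds were 1.48 for Otx2 E14, 1.03 and 0.615 for the adult Otx2 lists, 1.5 for BCOR E14, 1.20 and 1.09 for BCOR P0 and 1.34 and 0.665 for BCOR Adult. At these backgrounds the lowest fold that any of the 8 lists called was 3.20 to 3.95. These lowest folds do not rest on a common limit. The largest q-value was 0.0999 for BCOR E14, 0.0996 for Otx2 E14, 0.248 for both adult BCOR lists and 0.0466 to 0.0496 for the rest. The strength of 6219 birth-alone regions (87.0%, 95% Wilson interval 86.2 to 87.8%) was at or above 3.95, and that of 930 was below it. For those 930, a peak of equal fold at the lowest background would have lain under the lowest fold that at least 1 other list called there. On a higher background lower folds were called in some of the lists, so this bears only on places at the lowest one. Folds were not adjusted for the differing backgrounds of the lists. In the form used here, the fold shrinks when coverage and background fall in the same proportion. The 87.0% therefore does not show that the other lists could have called these regions.

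Summits of the 2 libraries of birth lay less close together in these regions than in the others with both peaks. Summits of the 2 lists lay 52 bases apart at the median, with 49.4% of birth-alone regions within 50 bases (95% Wilson interval 48.2 to 50.5%) and 90.5% within 200 bases. Over the other regions with both peaks the median was 35 bases, with 62.3% within 50 bases and 93.0% within 200. The rule asks for overlapping peaks of both lists, which by itself limits these distances. The distance shrank with strength, from a median of 70 bases under a strength of 5 to 20 bases at 20 or more. In strength class 5 the median was 49 bases in birth-alone regions, and over the 5 other kinds it ran from 38 in regions with BCOR to 52.5 in the 18 regions with Otx2 at every stage. Folds of the 2 libraries had a Spearman correlation of 0.695 across the 7149 regions, which share the libraries and are not replicates, against 0.882 across the others, whose folds span a wider range. Replicate 2 had the higher fold in 4649 birth-alone regions (65.0%), with a median ratio of 1.11, and a gap of 2-fold or more was found in 190 (2.66%), 166 of them higher in replicate 2 and 24 in replicate 1. Over all 18239 regions with both peaks these values were much the same, at 63.7%, 1.10 and 2.17%.

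The 10 strongest birth-alone regions ranked between 96th and 311th by fold in replicate 1 and between 25th and 405th in replicate 2. The highest was chr14:67979908-67980956 (build mm9 throughout, counted from 1), with folds of 56.2 and 91.3, summit coverages of 116 and 222, and summits at the same base, 67980359. By fold it ranked 96th of the 21759 peaks of replicate 1 and 25th of the 24884 of replicate 2, yet the nearest peak of the other 8 lists, of BCOR P0 replicate 2, was 125 kb away. The nearest adult Otx2 peak was 126 kb away and the nearest Otx2 E14 peak 211 kb away. No annotation of mm9 was used here, so the genes at this and the other named regions were not analysed here.

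On chromosome 13 the region chr13:29462642-29463436 had folds of 47.6 and 55.7, with summits 27 bases apart. Its nearest peak of another list, of BCOR E14, was 96.1 kb away, and the adult Otx2 peaks were over 500 kb away, at 554 and 555 kb. A second region of that chromosome, chr13:44025484-44026380, had 45.1 and 60.4 and lay in a denser neighbourhood, with a BCOR P0 peak 5.42 kb, adult Otx2 peaks 17.0 and 17.1 kb and an Otx2 E14 peak 21.5 kb away. The third, chr13:7962358-7962928, had 37.5 and 44.6, with an adult Otx2 peak at 64.3 kb and the E14 peaks of both proteins 907 kb away.

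The region on chromosome 3, chr3:77524586-77525346, had the most distant birth-alone neighbour of the 10 strongest, 522 kb away. Its folds were 42.8 and 44.6, its summits lay 3 bases apart, and the nearest peak of another list was 126 kb away (BCOR E14). The nearest adult Otx2 peaks were 590 and 1150 kb away. At the other end, chr10:59233935-59235149 (folds 40.6 and 42.3) lay 8.62 kb from an Otx2 E14 peak, 12.5 kb from an adult Otx2 peak and 11.3 kb from another birth-alone region. The region chr5:112464391-112465119 (38.9 and 52.8) lay 5.39 kb from a peak of adult Otx2 replicate 1, the shortest such distance among the 10. High birth-alone peaks thus occurred both in neighbourhoods rich in other peaks and in ones without them.

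The remaining 3 of the 10 strongest were chr6:127458465-127459033, chr4:104853365-104854526 and chr9:56593526-56594798. Their folds were 40.5 and 39.3, 38.9 and 56.5, and 37.7 and 49.8. The first was the only one of the 10 with a higher fold in replicate 1. Their nearest peaks of another list were of adult Otx2 replicate 2 at 15.4 kb, of BCOR E14 at 22.2 kb and of BCOR P0 replicate 1 at 49.1 kb. Over all 10, summits of the 2 lists lay 0 to 50 bases apart, and summit coverage was 77 to 128 in replicate 1 and 95 to 222 in replicate 2.

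Regions at the middle and the lower end looked different. The 3 nearest the median strength, chr15:76501866-76502091, chr12:88252295-88252877 and chr17:33855682-33855867, each had a fold of 5.60 in replicate 1, and 5.69, 8.60 and 6.84 in replicate 2. They ranked between 13456th and 13469th by fold in replicate 1, and their nearest peaks of another list were of adult Otx2 replicate 2, at 11.1, 16.3 and 15.8 kb. The 3 lowest had folds of 3.07 and 2.41 (chr5:14904967-14905169), 2.49 and 2.66 (chr4:135699306-135699691) and 3.86 and 2.52 (chr10:38891001-38891408). Their background was high, at 8.78, 6.22 and 3.66 in replicate 1, against a median of 1.10 over all birth-alone regions. The lowest region of chromosome 5 had a BCOR E14 peak 185 bases away and an Otx2 E14 peak 423 bases away. That of chromosome 4 had a BCOR P0 peak 52 bases away, so both met the rule by a short gap. Neither was kept when peaks within 500 bp were joined, or with no peak of another list within 1000 bp. The region of chromosome 10 was lost at a q-value of 0.04 or less in all lists, and only that of chromosome 5 was kept at 0.01 or less. None of the 3 was kept when a −log10 q of 5 or more was asked of both Otx2 P0 lists.

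Regions just outside the rule show how much it rests on single lists. There were 2812 regions with both Otx2 P0 peaks and a peak of exactly 1 further list, 15.4% of all with both. That list was Otx2 E14 in 1013, adult Otx2 replicate 2 in 869, BCOR P0 replicate 2 in 411, BCOR E14 in 392, adult Otx2 replicate 1 in 76, BCOR P0 replicate 1 in 49 and each adult BCOR list in 1. Of the adult Otx2 pair and of the P0 BCOR pair, the longer list thus held most of these regions. Their median strength was 7.08, against 5.60 inside the rule, and was 5.75 where the further list was BCOR E14 and 9.39 where it was Otx2 E14; the single regions with an adult BCOR peak had 3.84 and 3.62. The further peak itself was low, with a median fold of 5.22 for Otx2 E14 and 6.81 for adult Otx2 replicate 2, against 5.95 and 8.88 over those whole lists. On the other side, 2341 regions had a peak of Otx2 P0 replicate 1 alone and 4634 of replicate 2 alone, with no other list, at median folds of 4.32 and 4.51.

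Distances from birth-alone regions to peaks of the other lists were counted next. The rule leaves out any region that overlaps such a peak, which lowers the counts at short range. Shares over all regions with both Otx2 P0 peaks were not computed. A BCOR E14 peak lay within 1 kb of 1.96% of birth-alone regions, 1.58% of regions shared with E14 and 3.29% of those kept in both adult lists. Within 1 kb, 326 birth-alone regions (4.56%, 95% Wilson interval 4.10 to 5.07%) had a peak of any other list, within 10 kb 1935 (27.1%, 26.0 to 28.1%) and within 100 kb 5613 (78.5%). Counted by protein, 21.6% had an Otx2 peak of E14 or adult within 10 kb and 16.6% a BCOR peak of any stage. The median distance was 75.9 kb to an Otx2 E14 peak, 147 and 84.7 kb to the adult Otx2 lists, 76.7 kb to BCOR E14, 178 and 96.8 kb to the P0 BCOR lists and 749 and 465 kb to the adult BCOR lists. The lists differed in length, at 8497, 7183 and 14590, 10736, 5292 and 8784, and 1339 and 2445 peaks in the same order, and the 2 shortest had the longest distances. By strength, a peak of another list lay within 10 kb of 29.1% of birth-alone regions under a strength of 5 (27.4 to 30.7%) and of 21.5% of those at 20 or more (14.4 to 30.9%).

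**Figure D3:**
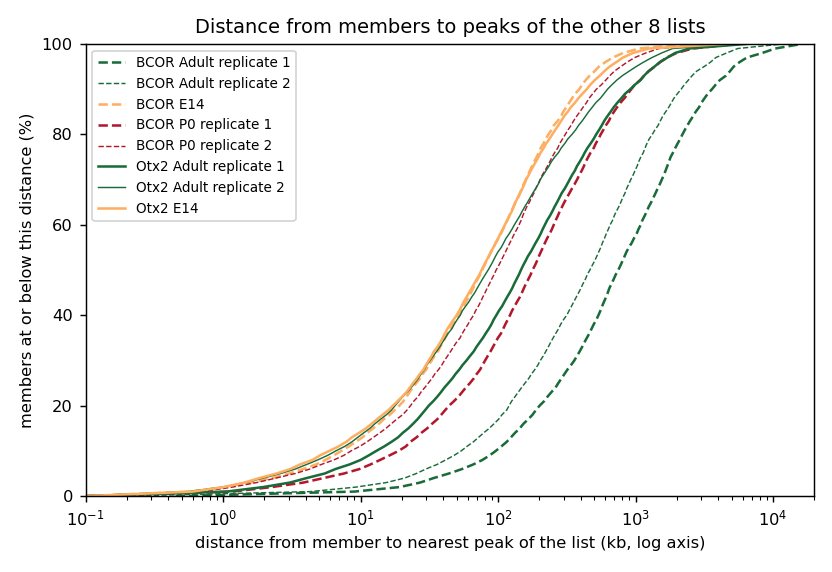
Share of birth-alone regions (vertical axis, %) whose nearest peak of a list lies at or below a distance (horizontal axis, kb, logarithmic), with 1 line for each of the other 8 lists. The lines for the 2 adult BCOR lists lie farthest to the right, with medians of 749 and 465 kb, and the shortest medians are those of the 2 E14 lists, with 75.9 and 76.7 kb.

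Regions that share the absence of BCOR were set beside them for these distances. Regions shared with E14, which like the birth-alone ones have no adult Otx2 and no BCOR peak, lay at nearly the same distances. Their medians were 149 and 80.3 kb to the adult Otx2 lists and 77.5 kb to BCOR E14, 175 and 95.4 kb to BCOR P0 and 753 and 469 kb to BCOR Adult. Regions kept in both adult lists, with no BCOR and no E14 peak, lay nearer to each of these lists. Their medians were 40.2 kb to Otx2 E14, 36.4 kb to BCOR E14, 84.3 and 47.2 kb to BCOR P0 and 363 and 171 kb to BCOR Adult. A BCOR P0 replicate 2 peak lay within 10 kb of 11.1% of birth-alone regions (10.4 to 11.8%), 8.79% of those shared with E14 (7.19 to 10.7%) and 20% of those kept in the adult (18 to 22.1%). The intervals cover counting error only and take regions as independent, which neighbours are not.

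Birth-alone regions were spread widely, with some gathered in stretches. The nearest other birth-alone region lay at a median of 60.4 kb (middle 50% from 17.0 to 175 kb), and within 10 kb for 1259 of them (17.6%, 95% Wilson interval 16.7 to 18.5%). Regions with a BCOR peak, which are nearly as many, lay at a median of 57.7 kb from one another, with 15.5% within 10 kb. When birth-alone regions less than 50 kb apart were chained, 3901 (54.6%) stood alone and 1566 (21.9%) lay in 421 stretches of 3 or more. Matching shares for other regions are not given here, so the stretches are not shown to be particular to this group. Neighbours had little likeness in height: over 679 pairs of birth-alone regions in succession within 10 kb, the Spearman correlation of their strengths was 0.0531.

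The stretch with the most regions, chr8:122984458-123142326, held 12 birth-alone regions in 158 kb, with strengths of 4.10 to 10.6. It held 12 other regions with both Otx2 P0 peaks as well, the highest at 71.1, and 16 BCOR peaks over the 5 lists. One of its birth-alone regions, chr8:123081277-123081685, ends just short of a peak of adult Otx2 replicate 2, chr8:123081704-123081886. The second stretch, chr17:62918151-63137714, held 10 birth-alone regions in 220 kb with strengths of 3.65 to 11.0, and was poor in other lists. Only 3 other regions with both Otx2 P0 peaks, 2 Otx2 E14 peaks and 1 adult Otx2 peak lay in it, and no BCOR peak of any list. Both remaining stretches had 9 birth-alone regions. In the 94.3 kb of chr7:86414324-86508578 they had strengths of 3.44 to 7.69 beside 2 regions with BCOR at 16.4 and 27.2, and in the 162 kb of chr5:125583109-125745514 they had 3.65 to 12.2 beside 7 other regions, the highest at 56.2. In all 4 stretches the highest region with both Otx2 P0 peaks was not birth-alone, although on chromosome 17 it stood at 12, close to the highest birth-alone region.

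**Figure D4:**
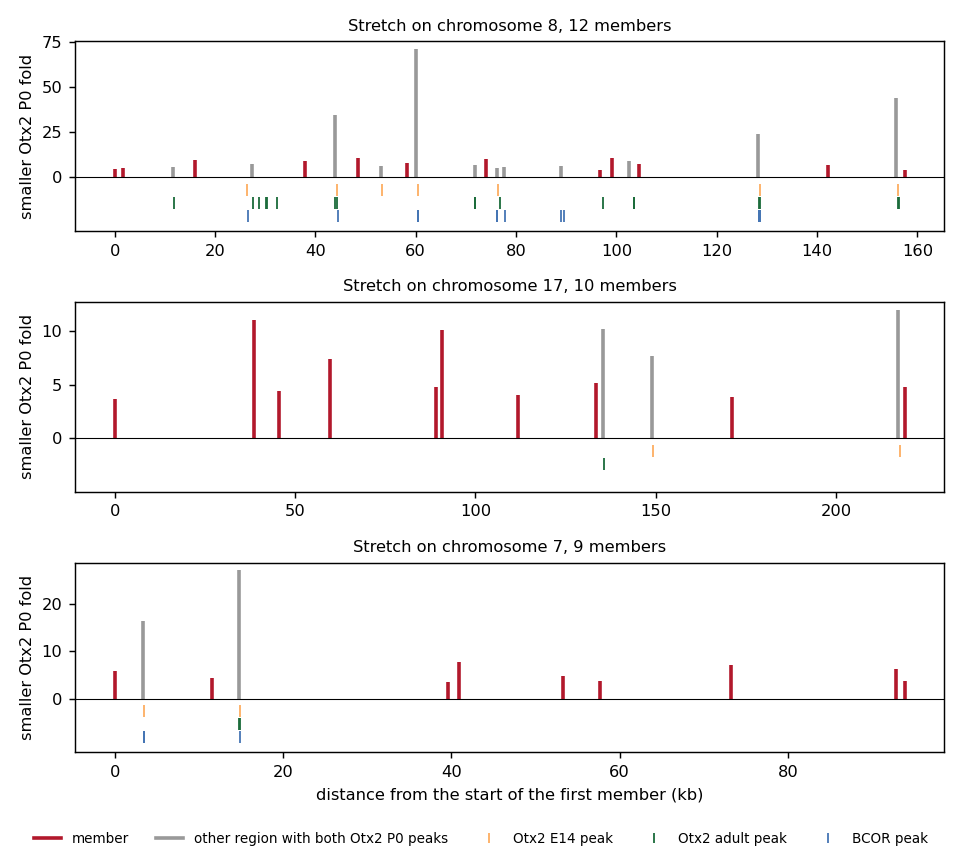
The stretches with 12, 10 and 9 birth-alone regions on chromosomes 8, 17 and 7, by distance from the first region (horizontal axis, kb), with the smaller Otx2 P0 fold as bar height (vertical axis) and peaks of the other lists as ticks under the axis. Red bars are birth-alone regions and grey bars other regions with both Otx2 P0 peaks; the stretch of chromosome 17 has no BCOR tick, while that of chromosome 8 has 16 BCOR peaks, several of them at the same place.

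Every chromosome from 1 to 19 held birth-alone regions, at 2.39 to 3.93 per Mb up to the last peak of the chromosome. As a share of the regions with both Otx2 P0 peaks they ran from 33.8% on chromosome 17 (95% Wilson interval 30.6 to 37.2%) to 45.6% on chromosome 16 (41.7 to 49.5%), around 39.2% for all. Chromosome 11, at 34.5%, had the most birth-alone regions per Mb (3.93) and also the most others (7.45). Chromosome 16 had 2.83 birth-alone regions per Mb and the fewest others (3.38). The others are part of what the share is taken over, so more of them lower it. Median strength was alike, at 5.29 to 5.74 over the 19 chromosomes.

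**Figure D5:**
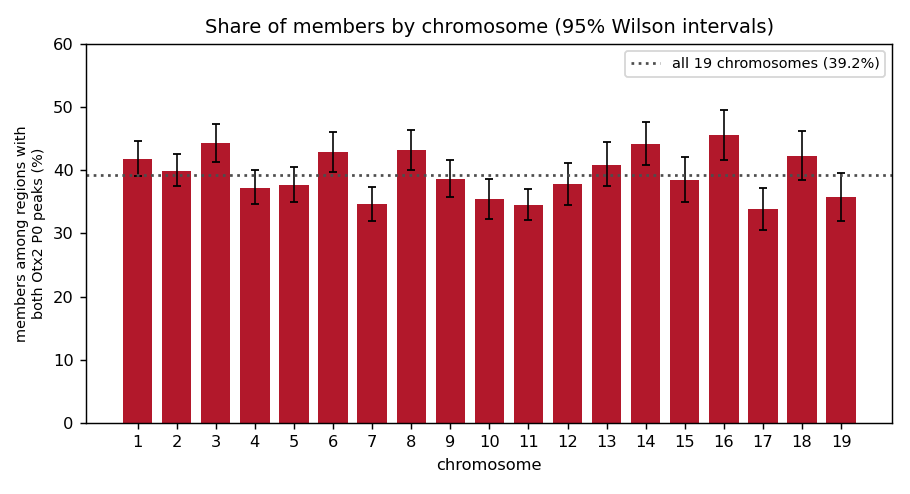
Birth-alone regions as a percentage of the regions with both Otx2 P0 peaks (vertical axis) on each chromosome (horizontal axis); bars are shares, whiskers 95% Wilson intervals and the dotted line is the share over all 19 chromosomes, 39.2%. Chromosome 16 stands highest at 45.6% and chromosome 17 lowest at 33.8%.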

How the data were processed

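CUT&RUN of Otx2 and BCOR in retina gave 10 peak lists, 1 per library, deposited by the authors. The submitters' processing notes name MACS2, Bowtie2 and deepTools among their tools, and both mm9 and mm10, without versions or roles. No control or calling threshold is stated in them. Chromosome 1 peaks reach 197068071, beyond the end of that chromosome in mm10, so the lists were read as mm9. The authors deposited, peak by peak, a score, a fold (a ratio over background), −log10 values of p and q, and the summit position. The largest q-value was 0.0999 and 0.0996 in the E14 lists of BCOR and Otx2, 0.248 for adult BCOR (both lists), and 0.0466 to 0.0496 elsewhere.

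Peaks were merged and counted with Python 3.11.15, numpy 2.4.6, pandas 2.3.3 and scipy 1.17.1. The merging and the recovery of summit coverage were tested on simulated data. A region with several peaks of a list took its highest fold. Distances count the bases between region ends. The named regions were the 10 with the highest smaller fold, the 3 nearest its median, the 3 lowest and the stretches with the most regions, leaving out chromosome 18; a tie at 9 added 1 stretch. One further region, beside an adult peak in the stretch of chromosome 8, was chosen after its values were seen. The regions and the rule were chosen with earlier results of these data known, and coverage recovery was added after the data were seen. The planned work on motifs and nearest genes was not run, for want of an mm9 reference, and no sequence is printed. The 4 RNA tables were not used. Alternatives covered merging, q-value limits, spacing and leaving out each list. Total read depth is unknown, and the counts limit precision through the intervals given, which cover counting error only.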

Additional observations from a re-analysis of the deposited data

Results flagged for a closer look

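The X chromosome lies outside the rule. There, 118 of 333 regions with peaks of both Otx2 P0 lists had no peak of any other list, 35.4% (95% Wilson interval 30.5 to 40.7%), a signal in data that the report does not use. Their median strength was 5.77 and the highest was 24.3. They lay at 0.708 per Mb, against 2.39 to 3.93 on chromosomes 1 to 19. All regions with both peaks were few there, at 333 against 602 on chromosome 19, the fewest of chromosomes 1 to 19. The share of 35.4% lay within the 33.8 to 45.6% of those chromosomes.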

How the results depend on the processing

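The number of birth-alone regions, 7149, stayed within 1.5 times under every alternative but 2: it was 4096 (30.7% of the regions with both peaks) when a −log10 q of 5 or more was asked of both Otx2 P0 lists, and 11856 without Otx2 P0 replicate 1. With no peak of another list within 1000 bp the share was 37.4%. Leaving out 1 list at a time gave 7150 to 11856 regions and 39.2 to 48.0%. The share in strength class 10, 8.94%, was 19.8% without the Otx2 E14 list and 14.1% without Otx2 P0 replicate 1. That in class 1, 51.4%, was 25.4% with the −log10 q limit. The other medians and shares that were recomputed moved by less than 1.5 times. Without one Otx2 P0 list, a named region's strength is its fold in the other list. Coverage, chromosomes and stretches were recomputed under no alternative. Motif and nearest-gene alternatives were not run. No paired analysis was possible because the results come from no test. Each E14 stage rests on 1 library per protein, and low summit coverage limits what absence from a list can show.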
